A study of Mus musculus with 28 samples.

Results

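The genes described here are Map3k8, a kinase that starts a MAP kinase cascade, and 9 dual-specificity phosphatases that switch MAP kinases off: Dusp1, Dusp2, Dusp4, Dusp5, Dusp6, Dusp7, Dusp8, Dusp10 and Dusp16. They were chosen by name, with earlier results of these data known. The study had already reported Map3k8 among genes that respond to lipopolysaccharide. These 10 genes are 10 of the 40021 in the table of normalised expression. Their RNA was measured by mRNA-Seq in microglia, the resident macrophages of the retina, sorted from 28 single mouse retinas. All mice were male heterozygous Cx3cr1CreER:R26-tdTomato animals on a C57BL/6 background, in which CreER made from the Cx3cr1 locus switches on the red reporter tdTomato in Cx3cr1-expressing cells after tamoxifen. Per the study's methods every mouse, controls included, was given tamoxifen as eye drops for 3 days at 4 to 5 weeks of age. The naive group (n = 10 retinas) received no injection, and the other groups had endotoxin-induced uveitis (EIU), started 4 weeks after tamoxifen by 10 ng of lipopolysaccharide (LPS) injected into the vitreous. EIU retinas were taken after 4 h (n = 6), after 18 h (n = 5) or after 2 weeks (n = 7), and live cells with high tdTomato (tdTomatohi DRAQ7-) were sorted. The uninjected controls do not separate LPS from the injection itself, and the labels do not say which retinas came from the same mouse, so p-values measure the spread between retinas. Retinas came from 2 experiments: in the order naive, 4 h, 18 h, 2 weeks, experiment 1 held 6, 3, 4 and 4 and experiment 2 held 4, 3, 1 and 3.

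MAP kinases (ERK, JNK and p38) relay signals from receptors such as TLR4, the receptor for LPS, to transcription and cytokine production. Map3k8, also called TPL2 or COT, phosphorylates the kinases that activate ERK, and in resting macrophages it is held inactive in a complex with the NF-kappa B precursor p105 and the adaptor ABIN2. Dual-specificity phosphatases remove phosphate from both the threonine and the tyrosine that activate a MAP kinase. Dusp1, Dusp2, Dusp4 and Dusp5 encode nuclear enzymes that are typically inducible, Dusp6 and Dusp7 encode cytoplasmic enzymes that prefer ERK, and Dusp8, Dusp10 and Dusp16 encode enzymes that prefer JNK and p38.

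The depth of the retinas ranged from 7510000 to 19700000 alignments, and from 6552 to 11825 genes reached 1 RPKM (a read level scaled to transcript length and to the depth of the library). The 7 retinas below 9000 genes were naive retinas 3, 4, 5 and 6, 4 h retina 2, 18 h retina 4 and 2-week retina 1. All 12 genes on a list of homeostatic microglia markers had a median above 1 RPKM in every group, and in the order naive, 4 h, 18 h, 2 weeks the median of their summed RPKM was 11463, 4961, 3304 and 11333. Of 9 neutrophil markers, none had a median above 1 RPKM in any group, and their summed RPKM reached at most 16.1, at 18 h. Transcripts of rod photoreceptors were present in every group, with medians of the summed RPKM of 11 markers of 3914, 4119, 2180 and 4351 in the same order, and those of 9 Müller glia markers were 1849, 1304, 1067 and 1822. Apoe made up most of the Müller glia sum, with medians of 1658, 1155, 955 and 1628 RPKM. In naive retinas Glul followed at 101 and Clu at 21.2 RPKM, and the rest of that list had medians of 11.1 or below. The medians of the summed RPKM were 7.78, 7.17, 9.07 and 12.1 for 9 monocyte markers, at most 2.24 for 7 endothelial markers, and 33.4, 12.4, 58.0 and 29.7 for 10 lymphocyte markers. Only 2 of the 10 lymphocyte markers were tested. The B cell gene Cd79b made up nearly all of that sum in naive, 4 h and 2-week retinas (medians of 33.4, 12.3 and 29.7 RPKM). Cd79b was called lower at 4 h (log2 change -1.56, adjusted p = 9.0e-04 by limma) but not at 18 h (0.04). Nkg7, a gene of cytotoxic cells, was called higher at 18 h (4.36, adjusted p = 2.0e-10 by limma). It lay at 5.77 RPKM or above in every 18 h retina and at 0.907 or below in the other groups. Nkg7 was thus tested only because it was high at 18 h, and its p-value is given as a description. For 9 heat shock and tissue dissociation genes the medians of the summed RPKM were 759, 774, 1452 and 774. Of these 9, 2 were called higher at 18 h, where 2.84% of all genes tested were. The part these other cells and stress transcripts played in the values below was not tested. In bulk RNA of sorted cells, fewer cells of a kind and less RNA per cell cannot be told apart.

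The promoters of the phosphatases were compared for short motifs that inducible genes often carry: the cAMP response element (CRE, TGACGTCA), the AP-1 site TGANTCA, the CArG box bound by serum response factor, an NF-kappa B site and the TATA motif TATAAA, each on both strands in the 250 bases before the RefSeq start site (GRCm38.p6). Of the 8 phosphatase promoters found in the reference table, those of Dusp1, Dusp5 and Dusp8 held a match and the others held none. Dusp1 held 1 CRE, 143 to 136 bases before the start. Dusp5 held 2 adjacent CArG boxes, at 82 to 73 and 72 to 63 bases before it. Dusp8 held 2 CREs, at 107 to 100 and 63 to 56 bases. Among 32841 promoters of the same length, 1.55% held the CRE, 1.47% a CArG box, 6.75% the AP-1 site, 3.90% the NF-kappa B site and 12.4% the TATA motif. The stretches of Dusp1 and Dusp5, 2 genes that rose at 4 h, and Dusp6, which fell, are shown with that of Dusp8, which carries the same element as Dusp1 and did not pass the test. Each reads 5′ to 3′ on the gene's strand with motif matches in capitals, and those of Dusp1 and Dusp5 stop 47 and 36 bases before the start, where the annotation places a transcribed leader. The Dusp1 stretch is at chr17:26508520-26508722 on the minus strand, in an intron of longer Dusp1 transcripts. Dusp5 is shown at chr19:53528895-53529108 on the plus strand, which overlaps an exon of the antisense gene AC137853.2. Dusp6 is shown at chr10:99262981-99263230 on the plus strand, outside annotated genes, and Dusp8 at chr7:142095285-142095534 on the minus strand, in an intron of a longer Dusp8 transcript.
Dusp1: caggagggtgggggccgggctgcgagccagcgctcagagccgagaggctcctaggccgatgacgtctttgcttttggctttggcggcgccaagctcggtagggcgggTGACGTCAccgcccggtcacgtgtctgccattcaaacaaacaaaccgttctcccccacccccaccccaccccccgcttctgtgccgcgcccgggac
Dusp5: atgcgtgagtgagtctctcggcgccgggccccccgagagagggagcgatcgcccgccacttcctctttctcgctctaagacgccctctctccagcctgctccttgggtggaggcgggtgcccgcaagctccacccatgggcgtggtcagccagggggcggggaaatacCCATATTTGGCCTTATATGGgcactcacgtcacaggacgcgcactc
Dusp6: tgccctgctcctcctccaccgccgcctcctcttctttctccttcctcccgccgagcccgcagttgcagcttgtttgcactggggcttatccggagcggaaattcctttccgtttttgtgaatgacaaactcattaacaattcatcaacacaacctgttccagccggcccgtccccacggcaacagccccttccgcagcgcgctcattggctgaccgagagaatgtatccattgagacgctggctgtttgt
Dusp8: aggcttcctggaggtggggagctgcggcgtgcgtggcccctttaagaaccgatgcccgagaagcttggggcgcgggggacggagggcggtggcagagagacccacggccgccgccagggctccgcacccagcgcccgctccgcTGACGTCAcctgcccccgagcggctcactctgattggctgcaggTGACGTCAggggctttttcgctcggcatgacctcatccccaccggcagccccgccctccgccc
A match is a description of the sequence, and binding was not measured.

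At 4 h after LPS the members split in direction. Map3k8, Dusp1, Dusp2, Dusp5 and Dusp16 rose, Dusp6 and Dusp7 fell, and Dusp8 and Dusp10 did not pass the test. The test was limma on log2(RPKM + 1), with a call at an adjusted p of at most 0.05 and at least a 2-fold change. Thus 5 of the 9 members tested were called higher, where 3.68% of the 13164 genes tested were, and 2 were called lower, where 4.39% were. Dusp2 and Dusp5 reached the filter on low values, 1 RPKM in 5 retinas, only through the 4 h group and so had to differ, and the other 7 members held 3 higher and 2 lower calls. In Map3k8, Dusp1 and Dusp16 every 4 h retina was above every naive retina, which held for 1.65% of genes. In Dusp6 every 4 h retina was below every naive one, which held for 1.42%. Dusp2 and Dusp5 also showed no overlap, which is a description because of how they reached the filter. By 18 h none of the 9 was called against naive retinas, where 2.84% of genes were called higher and 1.85% lower. Without 18 h retina 4, however, Map3k8 and Dusp2 were called higher. None of the 9 was called at 2 weeks, where 0.0076% of genes were higher and 0% lower.

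**Figure D1:**
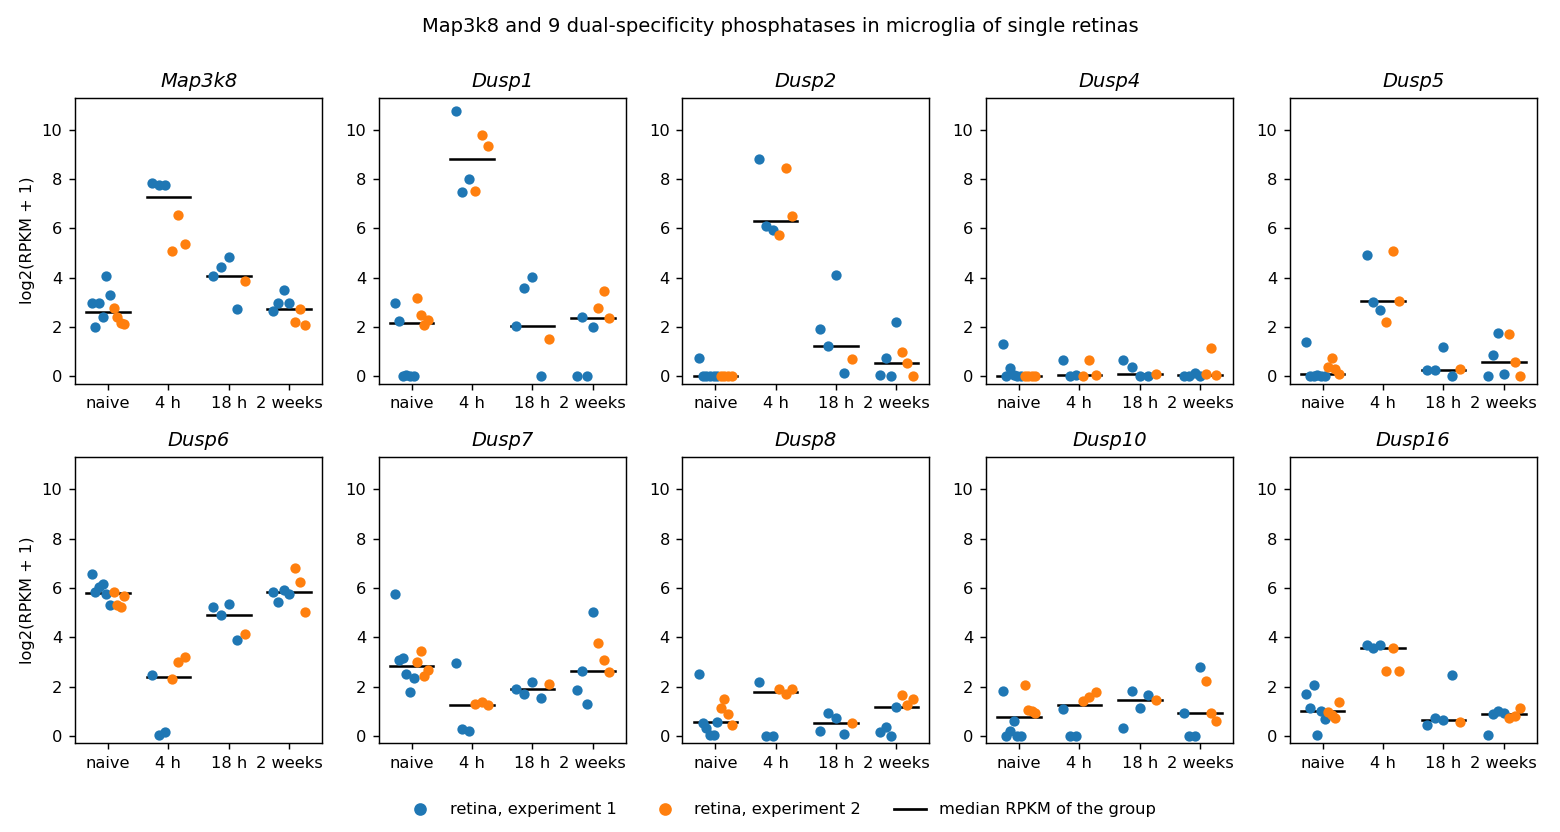
Each panel plots 1 gene, with log2(RPKM + 1) on the vertical axis and the 4 groups on the horizontal axis; points are retinas, coloured by experiment, and bars are group medians. The 4 h retinas stand above all others for Map3k8, Dusp1, Dusp2, Dusp5 and Dusp16 and below all others for Dusp6.

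Map3k8 (GRCm38 chr18:4331327-4353015, minus strand) had 6.27 ± 3.87 RPKM in naive retinas (mean ± SD, n = 10), from 2.97 to 15.8 with a median of 5.06. At 4 h its values were 231, 213, 217, 33.2, 93.1 and 40.3 RPKM in retinas 1 to 6, with a median of 153, which is 30.2 times the naive median. The lowest 4 h retina lay above the highest naive retina. The change was 4.01 on the log2 scale (SE 0.42), with an adjusted p of 2.9e-08 by limma. All 3 retinas of experiment 1 lay between 213 and 231 RPKM and the 3 of experiment 2 between 33.2 and 93.1. Within the experiments the log2 change was 4.83 and 3.31, and the difference of -1.52 (SE 0.69) had an adjusted p of 1.0. At 18 h Map3k8 had 15.6, 20.8, 27.9, 5.71 and 13.4 RPKM in retinas 1 to 5, below every 4 h retina. Retinas 2 and 3 at 18 h exceeded every naive retina and the other 3 lay within the naive range. The log2 change from naive was 1.27 (SE 0.45, 95% interval 0.36 to 2.18) with an adjusted p of 0.10 by limma. The retina at 5.71 RPKM was 18 h retina 4, which had 6969 genes at 1 RPKM. Without it the change was 1.58 (adjusted p = 0.042 by limma), so that 1 retina decided the call at 18 h. At 2 weeks Map3k8 ranged from 3.25 to 10.3 RPKM with a median of 5.59, inside the naive range. By median the order was 4 h, 18 h, 2 weeks and naive, and of these neighbours only 4 h and 18 h differed by the test.

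Dusp1 (chr17:26505590-26562128, minus strand), also called MKP-1, encodes a nuclear phosphatase that acts on p38 and JNK and limits cytokine production in macrophages. In naive retinas it ranged from 0 to 8.11 RPKM with a median of 3.47. It was listed at 0 in naive retinas 3, 5 and 6 and at 0.0416 RPKM in retina 4, the 4 naive retinas with the fewest genes detected. At 4 h it had 1747, 178, 258, 181, 883 and 639 RPKM in retinas 1 to 6. The median of 449 was 129 times the naive median, and no 4 h retina came near the naive range. The log2 change was 7.29 (SE 0.67, adjusted p = 2.2e-09 by limma), the highest of the 9 members on the log2(RPKM + 1) scale. This scale understates changes of genes near 0 such as Dusp2, and in experiment 2 the change of Dusp2 was higher (6.89 against 6.37). At 18 h Dusp1 had 3.08, 10.9, 15.4, 0 and 1.87 RPKM in retinas 1 to 5, so that 2 retinas were above the naive maximum and 1 was listed at 0. The log2 change from naive was 0.70 (SE 0.71, adjusted p = 0.67 by limma), and in experiment 2, with 1 retina at 18 h, it was -0.98. At 2 weeks it ranged from 0 to 10.1 RPKM with a median of 4.13, and overlapped with naive retinas. Of the 6 retinas in which Dusp1 was listed at 0, 5 were among the 7 with under 9000 genes. Ergic1 lies on the opposite strand within the annotated span of Dusp1, and the library kit does not keep strand, so reads of overlapping exons could not be told apart.

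Dusp2 (chr2:127336159-127338376, plus strand), or PAC-1, encodes a nuclear phosphatase found mainly in activated leukocytes. It was listed at 0 in 9 of 10 naive retinas and had 0.683 RPKM in naive retina 1. At 4 h it had 455, 66.7, 60.7, 52.3, 345 and 89.4 RPKM in retinas 1 to 6, with a median of 78.0. Every 4 h retina was far above the single naive value. On the log2(RPKM + 1) scale the change was 6.85 (SE 0.49, adjusted p = 9.6e-12 by limma). At 18 h Dusp2 had 2.76, 1.37, 16.2, 0.088 and 0.619 RPKM in retinas 1 to 5. Of these 5 retinas, 3 were above the naive maximum. The change of 1.54 (SE 0.52, 95% interval 0.47 to 2.61) had an adjusted p of 0.089 by limma, and without 18 h retina 4 it was 1.91 with an adjusted p of 0.035. At 2 weeks it was listed at 0 in 2 of 7 retinas and reached 3.62 RPKM in retina 4.

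Dusp5 (chr19:53529109-53542431, plus strand) encodes a nuclear phosphatase specific for ERK. Its naive median was 0.0536 RPKM, with 4 retinas listed at 0 and 1.66 RPKM in naive retina 1. At 4 h it had 29.0, 7.15, 5.44, 3.62, 32.8 and 7.30 RPKM in retinas 1 to 6, all above the naive range. The log2 change was 3.19 (SE 0.38, adjusted p = 3.4e-07 by limma). At 18 h it had 0.210, 0.179, 1.25, 0 and 0.215 RPKM, and at 2 weeks it ranged from 0 to 2.35 RPKM, so that neither group reached the lowest 4 h retina. Retinas 1 and 5 were the highest of the 6 at 4 h for Dusp1, Dusp2 and Dusp5, whereas retinas 1 and 3 were the highest for Map3k8 and Dusp16. Dusp2 and Dusp5 each reached 1 RPKM in 6 retinas at 4 h and in 4 of all others, under the 5 that the filter required, so that they were tested only because they were high at 4 h, and their p-values at 4 h are given as a description. The fourth nuclear phosphatase, Dusp4 (chr8:34807297-34819894, plus strand), reached 1 RPKM in 2 retinas and was not in the limma fit. It was listed at 0 in 14 of 28 retinas, reached 1.5 RPKM in naive retina 1 and 1.23 in 2-week retina 6, and at 4 h lay between 0 and 0.600 RPKM with a median of 0.0368. An exact two-sided permutation test of its log2(RPKM + 1) at 4 h against naive gave p = 0.73.

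Dusp6 (chr10:99263231-99267489, plus strand), or MKP-3, encodes a cytoplasmic phosphatase of ERK whose own transcription is commonly raised by ERK signalling. It was the most abundant of the 9 phosphatases in naive microglia, at 55.7 ± 17.7 RPKM (SD, n = 10), from 36.1 to 94.7 with a median of 54.0. At 4 h it had 4.61, 0.0277, 0.114, 4.00, 6.95 and 8.14 RPKM in retinas 1 to 6. The naive median was 12.6 times the 4 h median, and the highest 4 h retina was below the lowest naive one. The log2 change was -3.90 (SE 0.41, adjusted p = 3.2e-08 by limma). Retinas 2 and 3, both of experiment 1, were the lowest. The change was -5.05 in experiment 1 and -2.66 in experiment 2, and the difference of 2.39 (SE 0.72) did not pass (adjusted p = 0.39 by limma), but without 4 h retina 1 it was 3.18 with an adjusted p of 0.022. Of the 9 members 0 differed between the experiments at 4 h with all retinas, where 0.0988% of genes did, and 2 had an unadjusted p under 0.05. At 18 h Dusp6 had 36.6, 28.5, 39.7, 13.9 and 16.5 RPKM in retinas 1 to 5. Retinas 2, 4 and 5 of these were below every naive retina, and all 5 were above every 4 h retina. Against naive the change was -1.07 (SE 0.44, 95% interval -1.96 to -0.18, adjusted p = 0.18 by limma). At 2 weeks Dusp6 was at 60.9 ± 25.5 RPKM (SD, n = 7), from 31.4 to 110 with a median of 55.5, close to the naive median. At 4 h, 6 of the 12 homeostatic microglia markers were also called lower, where 4.39% of all genes tested were. The summed RPKM of the 12 was 1877 to 7372 against 7300 to 15752 in naive retinas, and their part in the fall of Dusp6 was not tested.

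Dusp7 (chr9:106368632-106375724, plus strand), the other cytoplasmic ERK phosphatase, lay between 2.39 and 9.95 RPKM in 9 naive retinas and at 52.6 in naive retina 1, with a median of 6.19. At 4 h it had 6.75, 0.207, 0.159, 1.42, 1.60 and 1.37 RPKM in retinas 1 to 6. In all, 5 of the 6 were below every naive retina, while 4 h retina 1 lay within the naive range. The log2 change was -1.79 (SE 0.51, adjusted p = 0.022 by limma). This call was lost without 4 h retina 2 (-1.60, adjusted p = 0.070) or 4 h retina 3 (-1.59, adjusted p = 0.074), and in experiment 1 alone (-1.96, adjusted p = 0.33), but held in experiment 2 alone (-1.58, adjusted p = 0.0077). At 18 h it had 2.76, 2.22, 3.60, 1.86 and 3.35 RPKM, low in the naive range with 2 retinas below it, and the change of -1.13 (SE 0.54) had an adjusted p of 0.28 by limma. At 2 weeks it ranged from 1.44 to 31.7 RPKM with a median of 5.20.

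Of the phosphatases that prefer JNK and p38, Dusp16 (chr6:134715468-134792625, minus strand), or MKP-7, was the member that changed. Naive retinas had 1.23 ± 0.91 RPKM (SD, n = 10), from 0.0288 to 3.18. At 4 h it had 12.05, 10.96, 11.7, 5.26, 10.9 and 5.24 RPKM in retinas 1 to 6, and the lowest of these exceeded the highest naive retina. The log2 change was 2.24 (SE 0.33, adjusted p = 9.3e-06 by limma). At 18 h it had 0.366, 0.637, 0.583, 4.59 and 0.465 RPKM, where retina 4 stood apart from the other 4, and at 2 weeks it ranged from 0.0389 to 1.17 RPKM. Dusp8 (chr7:142079490-142095843, minus strand) had a median of 0.459 RPKM in naive retinas and 2.48 at 4 h, but was listed at 0 in 4 h retinas 2 and 3, and its log2 change was 0.48 (SE 0.38, 95% interval -0.29 to 1.25, adjusted p = 0.52 by limma). Dusp10 (chr1:184013302-184075636, plus strand), or MKP-5, had medians of 0.711, 1.38, 1.77 and 0.909 RPKM in the order naive, 4 h, 18 h, 2 weeks, and was also listed at 0 in 4 h retinas 2 and 3. Its log2 change at 4 h was 0.20 (SE 0.41, 95% interval -0.64 to 1.04, adjusted p = 0.84 by limma), with 0.32 in experiment 2 and -0.08 in experiment 1. The 4 h retinas 2 and 3 were thus the lowest for Dusp6, Dusp7, Dusp8 and Dusp10.

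**Figure D2:**
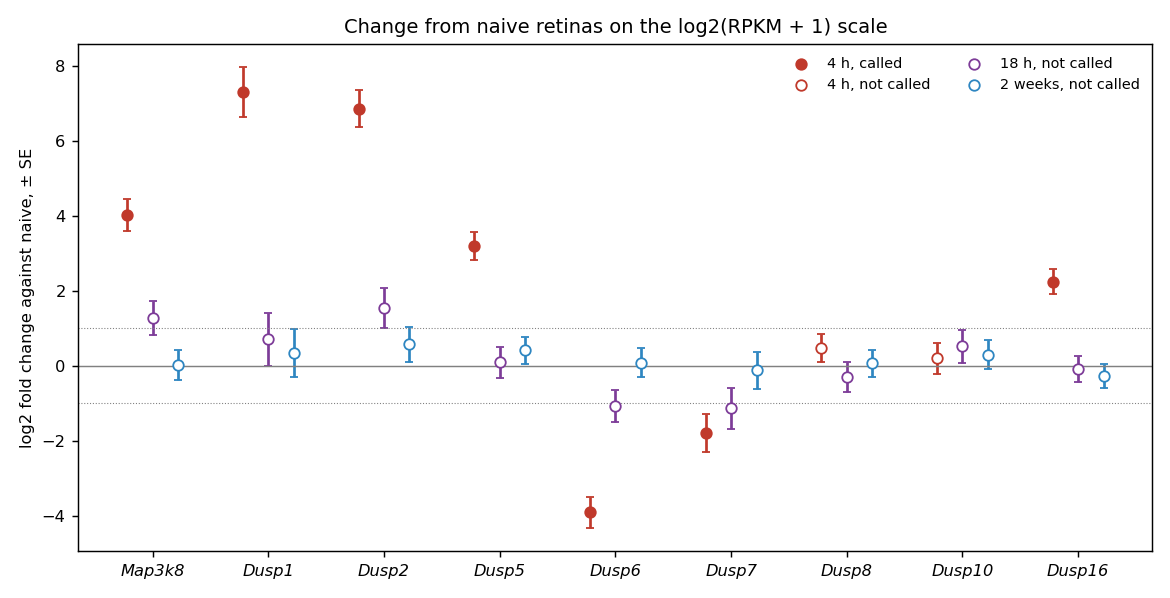
The vertical axis gives the log2 fold change from naive retinas with its standard error for the 9 members tested in each EIU group; filled points passed the test and dotted lines mark a 2-fold change. At 4 h the points run from -3.90 for Dusp6 to 7.29 for Dusp1, and no 18 h or 2-week point is filled.

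The direction at 4 h was the same in both experiments for the 7 members called. The log2 change in experiments 1 and 2 was 7.88 and 6.37 for Dusp1, 6.83 and 6.89 for Dusp2, 3.29 and 3.07 for Dusp5, and 2.54 and 1.97 for Dusp16. Map3k8, Dusp1 and Dusp16 were called higher in each experiment alone. Dusp2 and Dusp5 were too, but they passed the filter only through the 4 h group, so their calls and shared direction are a description. At 18 h, where experiment 2 had 1 retina, the changes from naive were 1.07 and 1.49 for Map3k8, 1.72 and 0.69 for Dusp2, -1.11 and -1.37 for Dusp6, and -1.27 and -0.76 for Dusp7.

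Between 4 h and 18 h the changes ran the other way. Map3k8 fell by 2.74 on the log2 scale (SE 0.49, adjusted p = 4.3e-04), Dusp1 by 6.58 (SE 0.79, 8.3e-07), Dusp2 by 5.31 (SE 0.58, 1.6e-07), Dusp5 by 3.10 (SE 0.45, 2.0e-05) and Dusp16 by 2.33 (SE 0.38, 1.1e-04), all by limma. Dusp6 rose by 2.83 (SE 0.48, adjusted p = 2.1e-04), and Dusp7 did not pass (0.66, SE 0.60, adjusted p = 0.67). These 5 lower and 1 higher calls stand beside 2.51% and 2.92% of genes tested, and no retina overlapped in any of the 6, as in 2.79% and 4.84% of genes. In experiment 2, which had 1 retina at 18 h, Dusp1, Dusp2 and Dusp16 kept their calls, while Map3k8 (-1.83, adjusted p = 0.071), Dusp5 (-3.17, 0.070) and Dusp6 (1.29, 0.23) did not. From 4 h to 2 weeks the same 5 were called lower (2.91% of genes) and Dusp6 higher (3.18% of genes), again without overlap (1.77% and 2.47% of genes). Dusp2 and Dusp5 were tested only because they were high at 4 h. Their falls from 4 h to 18 h and to 2 weeks, with their p-values and lack of overlap, are therefore a description. Against naive retinas at 18 h, 0 of 9 members were called, beside 2.84% of genes higher and 1.85% lower, and no member separated the groups completely, as 2.05% of genes did upward and 1.3% downward. Map3k8, Dusp2, Dusp6 and Dusp7 had unadjusted p-values under 0.05 in limma. At 2 weeks 0 of 9 were called by limma, where 0.0076% of genes were higher and 0% lower, which are also the shares without overlap, and no member had an unadjusted p under 0.05. Between 18 h and 2 weeks 0 of 9 were called, beside 1.1% of genes higher and 1.55% lower, and none separated the groups (2.09% and 2.07% of genes), with Map3k8 and Dusp6 under an unadjusted p of 0.05.

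The phosphatases can also be read as a mixture, since RPKM is scaled to transcript length. Dusp6 had the highest RPKM of the 9 in 10 of 10 naive retinas, 5 of 5 at 18 h and 7 of 7 at 2 weeks, and Dusp1 in 6 of 6 at 4 h. The summed RPKM of the 9 had medians of 64.8, 546, 46.7 and 64.3 in the order naive, 4 h, 18 h, 2 weeks. At 4 h the sum ranged from 252 to 2260, above the naive range of 44.3 to 167. Dusp6 made up a median of 80.8%, 0.372%, 61.3% and 77.5% of the sum in the same order, and Dusp1 made up 4.73%, 74.3%, 7.39% and 4.17%. Dusp2 held a median share of 0% in naive retinas and 20.4% at 4 h. Taken by site and target, the cytoplasmic ERK phosphatases Dusp6 and Dusp7 held 82.0% to 99.1% of the sum in naive retinas and 0.0812% to 2.15% at 4 h, and the nuclear enzymes Dusp1, Dusp2, Dusp4 and Dusp5 held 0% to 11.03% and 94.0% to 98.8%. At 18 h the nuclear enzymes held 0.388% to 41.8%, so that single retinas differed widely, with retina 4 lowest and retina 3 highest. The share of Dusp8, Dusp10 and Dusp16 had a median of 4.67% in naive retinas and 2.42% at 4 h, although Dusp16 itself rose. These shares are of RNA, and protein and phosphatase activity were not measured.

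**Figure D3:**
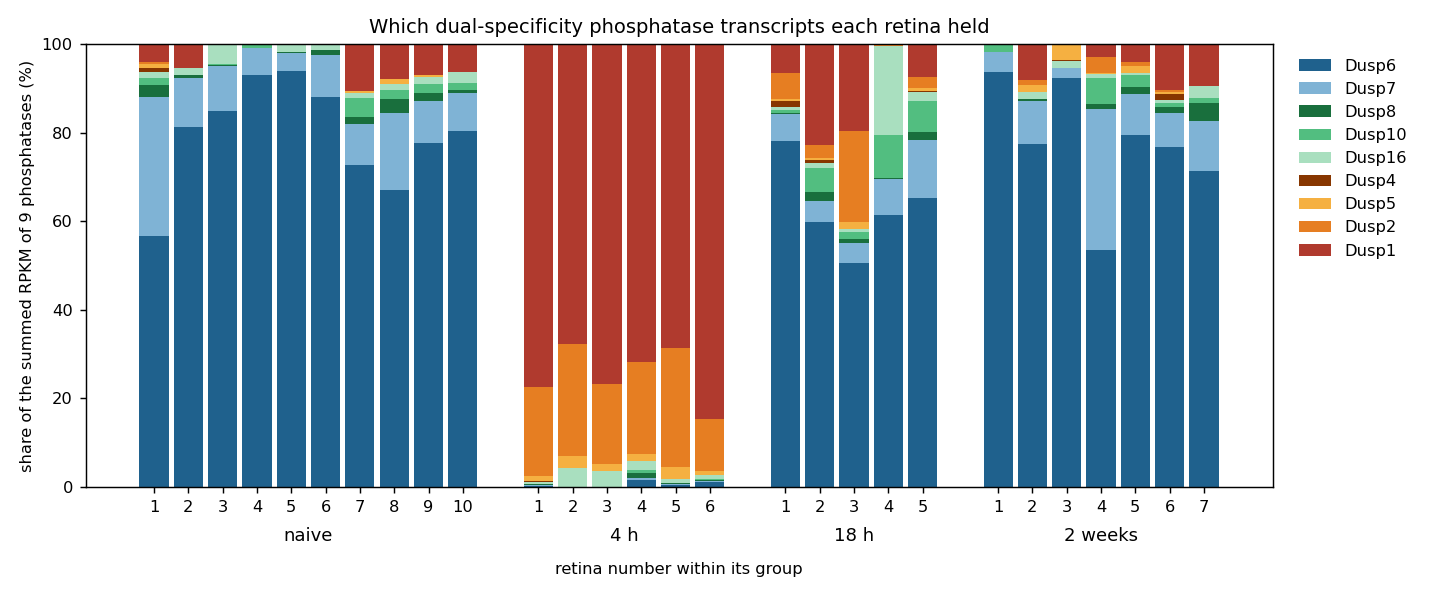
Each bar is 1 retina, numbered within its group, and divides the summed RPKM of the 9 phosphatases into percent shares. Dusp6 fills most of the bar in all naive, 18 h and 2-week retinas, with a naive median of 80.8%, and Dusp1 with Dusp2 fills most of it in all 6 retinas at 4 h, where Dusp1 has a median of 74.3%.

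Of 14 genes upstream of Map3k8, all tested, 2 were called higher and 1 lower at 4 h and none at 18 h, with medians of 0.09 and -0.18 on the log2 scale where all genes had -0.11 and -0.08. Both that rose encode partners of Map3k8 in the complex in which it is held inactive. Tnip2, which encodes ABIN2, went from a median of 6.94 RPKM to 66.6 (log2 change 3.18, SE 0.57, adjusted p = 2.2e-04 by limma), and Nfkb1, which encodes p105, from 4.95 to 11.8 (1.34, SE 0.31, 0.0037). Tlr4, the LPS receptor, fell from a median of 8.94 RPKM to 1.05 (-2.15, SE 0.43, 9.7e-04), and was at 9.75 at 18 h. These and the counts of the next lists stand beside 3.68% of all genes tested called higher and 4.39% lower at 4 h, and 2.84% and 1.85% at 18 h. Of 11 other MAP3 kinases tested, limma called 0 at 4 h and 0 at 18 h, with medians of -0.03 and -0.45. Of 7 MAP2 kinases 1 was called, Map2k3, which activates p38, from a median of 2.76 to 17.9 RPKM (2.71, SE 0.72, 0.013), and none was at 18 h. Of 10 MAP kinases, Mapk6, which encodes the atypical kinase ERK3, rose from 1.19 to 9.14 RPKM (2.24, SE 0.41, 2.7e-04), and Mapk14, which encodes p38 alpha, fell from 12.01 to 3.52 RPKM (-1.88, SE 0.44, 0.0046). Mapk14 was also called lower at 18 h, at 5.57 RPKM (-1.65, SE 0.47, 0.034). Of 9 kinases activated by MAP kinases, Mapkapk2, a target of p38 that stabilises cytokine mRNA, rose (2.31, SE 0.55, 0.0048) and Rps6ka1, a target of ERK, fell (-1.94, SE 0.62, 0.047), and none was called at 18 h.

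Other dual-specificity phosphatases, phosphatases of other families and other feedback regulators were taken as 3 lists, and not every gene on them is a brake on MAP kinases. Of 12 other dual-specificity phosphatases tested, 1 was called at 4 h, Ssh2, which acts on the actin regulator cofilin and fell from a median of 12.03 RPKM to 2.75 (log2 change -1.86, SE 0.36, adjusted p = 5.1e-04 by limma). Of 5 phosphatases of other families 0 were called at 4 h and 0 at 18 h by limma. Of 14 other feedback regulators, Gadd45b, a stress-induced protein that binds kinases of the JNK and p38 cascades, rose from a median of 0 to 232 RPKM (7.32, SE 0.55, 1.8e-11) and was still higher at 18 h, at 7.65 RPKM (2.59, SE 0.58, 0.0057). Rasa3, which inactivates Ras and Rap, fell from 7.36 to 1.57 RPKM (-1.76, SE 0.42, 0.0056). Of 16 immediate early genes tested, which MAP kinases induce within minutes to hours, 11 were called higher and 1 lower at 4 h, with a median log2 change of 1.75, and none was called at 18 h, with a median of 0.15, where all genes had medians of -0.11 and -0.08 and shares of 3.68% higher and 4.39% lower at 4 h. Maff, Fosl2 and Fosl1, 3 of the 11, reached 1 RPKM in 1 retina each outside the 4 h group and passed the filter only with it, so their calls are a description, and the other 13 genes tested held 8 higher and 1 lower calls. Some of these genes are also raised by tissue dissociation, whose part was not tested. Those that rose included Maff (2.40, SE 0.33, 4.1e-06), Fosl2 (1.52, SE 0.21, 4.5e-06), Ier3 (5.03, SE 0.84, 8.8e-05) and Ier2 (3.95, SE 0.69, 1.7e-04). The 1 that fell, named after its value was seen, was Etv5, an ETS transcription factor, from 7.53 to 1.18 RPKM (-2.02, SE 0.37, 3.2e-04).

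**Figure D4:**
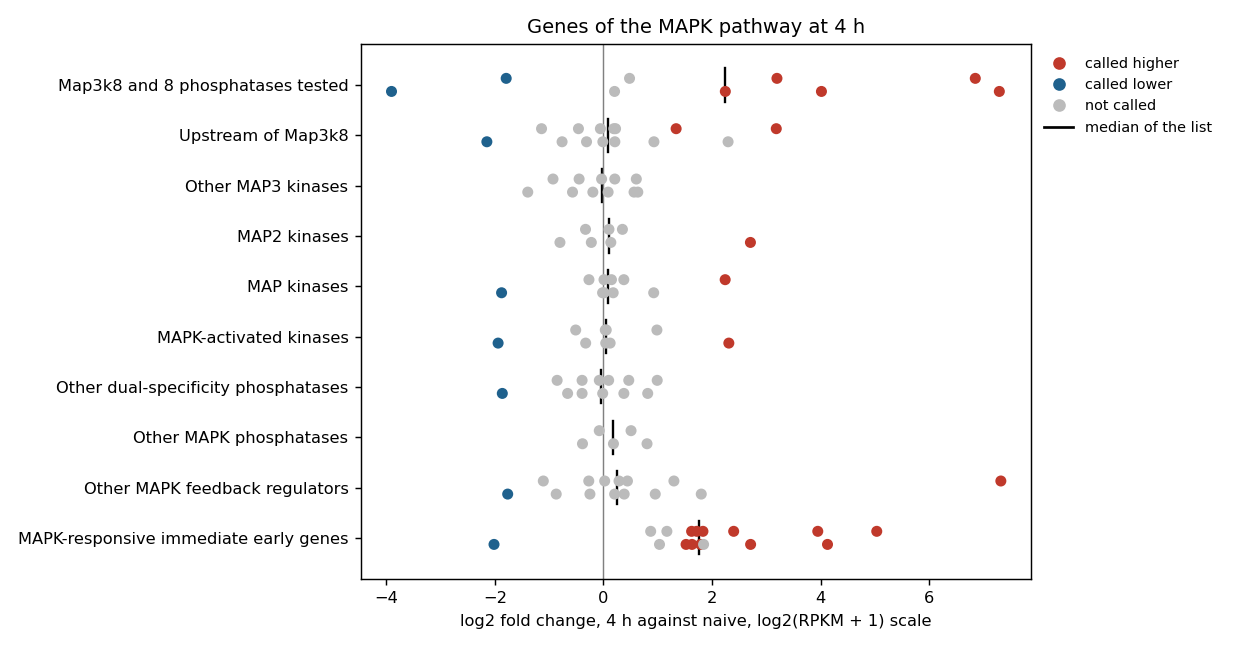
Rows are the members tested and 9 lists of MAP kinase pathway genes, and the horizontal axis is the log2 fold change at 4 h against naive retinas; each point is a gene and each bar the median of its list. Called genes, in red and blue, make up 5 higher and 2 lower of the 9 members and 11 higher and 1 lower of the 16 immediate early genes.

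The genes whose values followed each member most closely over the 28 retinas were found by the root mean square difference between log2(RPKM + 1) values, each centred on its own naive mean. For Map3k8 these were Tnip3 (0.77), which encodes a relative of ABIN2, Cd40 (0.78), a co-stimulatory receptor, and Gm45184 (0.82), a long non-coding RNA gene at chr7:127434422-127439392. Their log2 changes at 4 h were 4.37, 4.64 and 3.37. For Dusp1 the nearest gene was Ppp1r15a (1.06), which encodes the phosphatase subunit GADD34 and went from a median of 5.05 RPKM to 488 at 4 h. For Dusp2 it was Gadd45b (0.87). For Dusp6 it was Hhex (0.59), a homeobox transcription factor that fell from a median of 42.0 RPKM to 1.62 at 4 h and stood at 27.1 RPKM at 18 h and 37.6 RPKM at 2 weeks. For Dusp5 it was Gm45774 (0.64), annotated antisense to Mt2, for Dusp7 Cracr2b (0.69) and for Dusp16 Gm45266 (0.56), which overlaps Rab11fip1. In a library without strand, reads of Gm45774 and Gm45266 cannot be told apart from those of the genes they overlap. These distances describe likeness over retinas that share libraries and groups, and carry no test.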

How the data were processed

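The members and gene lists were chosen with earlier results of these data known. Libraries were made with the SMART-Seq v4 and Nextera XT kits, which do not keep strand. Per the study's methods and the submitters' processing notes, reads were demultiplexed with bcl2fastq 2.20, trimmed, aligned to mm10 with STAR 2.5.3a and quantified on Ensembl transcripts with the Partek E/M method, where 1 read may be shared among several transcripts. The authors deposited the result as RPKM values in 1 table of 28 retinas, used here as given. Depth is known only as the stated number of alignments, and whole reads could not be recovered, so no count test was run. An exact 0 can be a failed estimate, so members with such values are given by retina or median. The authors' tables of their own comparisons, which hold p-values and fold changes, were not used.

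Values were set to log2(RPKM + 1), and 13164 of 40021 genes with at least 1 RPKM in at least 5 retinas were tested with limma 3.58.1 in R 4.3.3. All 28 retinas entered 1 fit of 4 groups with a mean-variance trend, with Benjamini-Hochberg adjustment over all genes tested. Genes were called when the adjusted p was 0.05 or lower and the change 2-fold or more. Fold changes on this scale understate those of low genes. The code was tested on simulated data. Named genes of a list are up to 4 called genes with the lowest adjusted p at 4 h, then 18 h. For Map3k8 the 3 nearest genes are named, and the nearest 1 for each other called member. Alternatives were other pseudocounts, filters, scalings, weights and covariates, a one-way ANOVA on untransformed RPKM, each experiment alone, the compared groups alone, a replicate block and each retina left out in turn. Any 2 retinas had at most 2 identical non-zero values, so none was a duplicate. Gene positions are those of GENCODE M21 (GRCm38). Python 3.11.15 and matplotlib 3.10.9 drew the figures.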

Additional observations from a re-analysis of the deposited data

Results flagged for a closer look

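In 40 groups of 5 to 10 retinas, 8 member values stood apart from the rest of their group by Dixon's ratio on the log2(RPKM + 1) scale. For normally distributed values chance flags about 1 group in 20. That rate need not hold for groups with many values at 0. Of 10 naive retinas, 9 were listed at 0 for Dusp2, 7 for Dusp4 and 4 for Dusp5. Of the 8 values flagged, 4 were the highest value in naive retina 1, which had the most genes at 1 RPKM of all 28 retinas (11825). They were 0.683 RPKM for Dusp2, where the other naive retinas were listed at 0, 1.5 for Dusp4, 1.66 for Dusp5 and 52.6 for Dusp7, whose next naive value was 9.95. The others were 1.23 RPKM for Dusp4 in 2-week retina 6, 1.25 for Dusp5 in 18 h retina 3, 4.59 for Dusp16 in 18 h retina 4 and 0.0389, the lowest of its group, for Dusp16 in 2-week retina 1. The last 2 retinas had 6969 and 6644 genes at 1 RPKM.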

How the results depend on the processing

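The 5 members called higher at 4 h numbered 4 to 5 under all 15 alternative settings and 5 with each retina left out. The exception at a pseudocount of 10 was Dusp16, with a log2 change of 0.77. Dusp2 and Dusp5 passed the filter only through the 4 h group, so their calls are a description. Those called lower numbered 1, not 2, with a pseudocount of 10, no filter, the replicate block, experiment 1 alone or ANOVA on untransformed RPKM, and 1 to 2 with each retina left out. In each of these settings the call lost was Dusp7, whose adjusted p over the 15 settings ranged from 3.6e-04 to 0.41. Higher calls at 18 h against naive were 1 with a pseudocount of 0.1 (Dusp2, 3.67, adjusted p = 0.012), 2 with array weights (Map3k8, 1.94, and Dusp2, 2.16) and 0 to 2 with each retina left out. Without the 7 retinas below 9000 genes, a setting chosen after seeing the data, there was 1 (Map3k8, 1.90, adjusted p = 0.00872). Lower calls at 2 weeks against 18 h were then 1, and 2 with array weights, not 0. From 4 h to 18 h, Dusp6 was not called in experiment 2 alone or by ANOVA on untransformed RPKM (0 higher calls, adjusted p = 0.23 and 0.25), and lower calls, 5 as reported, numbered 3 in experiment 2 alone, 4 at a pseudocount of 10 (Dusp16, -0.77), 6 with array weights and 5 in the other settings. From 4 h to 2 weeks, higher calls were 2 with a pseudocount of 0.1, equal summed RPKM, experiment 2 alone or array weights, and 1 to 2 with each retina left out. Differences between experiments at 4 h numbered 0 to 1 with each retina left out. Directions that turned were Dusp10 at 4 h in experiment 1 alone (-0.0758) and Dusp1 at 18 h in experiment 2 alone (-0.98), neither called. These causes were not tested.

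Retinas were not paired by replicate number in the main fit. The correlation of deviations over 34 pairs with the same number ran from -0.33 to 0.70, with a median of 0.035, and 15 were over 0.1. Pairs with different numbers were not compared, so these values cannot tell whether the numbers pair the retinas. With the replicate block Dusp7 at 4 h was at -1.90 (adjusted p = 0.055), and no other count of members called changed. Scaling to equal summed RPKM moved the median of all genes from -0.11 to -0.28 at 4 h and from -0.08 to -0.26 at 18 h, and calls at 4 h from 485 higher and 578 lower to 410 and 1002. Low members are limited by depth, since 1 read of Dusp4 is worth 0.0185 to 0.0486 RPKM.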
